A study of Galdieria sulphuraria with 9 samples.

Results

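The first cold shift of a temperature timeline in the red alga *Galdieria sulphuraria*, a single-celled inhabitant of acidic hot springs, was examined by RNA sequencing. It is the step from 42 °C to 28 °C, and its members are 5 of the 9 libraries of the series, chosen by their sampling labels. H-42 (2 libraries, cultures B and C) was taken after 2 weeks at 42 °C, and C-28.1 (3 libraries, cultures A, B and C) after the same cultures had been kept for 48 h at 28 °C. The other 4 libraries are H-46, after 48 h at 46 °C, and C-28.2, a second stay of 48 h at 28 °C, each with cultures A and C. All cultures were wild type strain 074W, grown as autotrophic batch cultures in 2xGS medium under constant light and shaking, each replicate culture on its own. Since the series holds no culture that stayed at 42 °C beside those that were moved, the change of temperature and the additional 48 h of growth in batch cannot be told apart.

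Poikilothermic cells that are cooled meet stiffer membranes, more stable RNA secondary structures and slower enzymes. Algae, plants and cyanobacteria are known to respond with fatty acid desaturation, with RNA-binding proteins and RNA helicases, and with shifts in the synthesis of the translation apparatus. *G. sulphuraria* can grow on light alone or on many organic carbon sources, and its genome holds numerous transporters and enzymes for their uptake and use. The question put to the libraries here is which genes were raised and which were lowered at the first transfer.

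Transcript levels are given as CPM (counts scaled to a common library size), scaled with the trimmed mean of M values (TMM), a scaling between libraries. Values for 42 °C are always listed for cultures B and C, and values for 28 °C for cultures A, B and C. A gene was called higher or lower when edgeR's quasi-likelihood test gave a Benjamini-Hochberg adjusted p below 0.01 over all 6264 tested genes and the change was more than 2.5-fold. A CPM is a share of the library, so that a change in total RNA per cell, or in the number of cells, would not show in it. The 5 libraries held between 4539163 and 8989387 counts on genes. Within a sampling the libraries differed by a root mean square of 0.252 (H-42) and 0.249 to 0.373 (C-28.1) on the log2 scale, against 0.878 to 0.973 between the samplings, over 5930 genes that reached 10 counts in each of the 9 libraries. C-28.1 A and C-28.1 B carry the same adapter index, 12, in the labels. The sequencing lane of each library is not given in the sources used here, so an effect of the lane was not tested. Of the gene numbers in the count tables, 6510 of 6538 have a locus tag in the RefSeq annotation of assembly ASM34128v1. Product names came from the supplementary tables of the study and cover 771 genes, so most called genes have none. The identity of the strain was not checked against marker genes. The genes named below follow a fixed rule of rank within the called genes and within each gene list. List members with only a fold change or a call beside them were picked after their values were seen, as were the genes said to be so.

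Of the 6264 tested genes, 735 (11.7%) were called, 395 of them higher (6.31%) and 340 lower (5.43%) at 28 °C. Scaled by library totals alone, the balance turned to 353 higher and 390 lower genes. The genes that rose more than 4-fold numbered 121, and those that fell more than 4-fold numbered 113. More than 16-fold changes were seen in 7 higher and 13 lower genes. The median change of the called genes was 3.25-fold upwards and 3.31-fold downwards, whereas the median log2 fold change of all tested genes was -0.01. The 395 higher genes together took 5.20 and 4.70% of the counts at 42 °C and 18.7, 19.4 and 18.6% at 28 °C. The 340 lower genes took 15.8 and 17.2% at 42 °C and 4.17, 3.60 and 4.09% at 28 °C. These shares describe genes that were chosen on the same values. In each of the 735 called genes the libraries of both samplings were apart, but so they were in 75.8% of all tested genes, 37.3% with all of C-28.1 above H-42 and 38.5% below. An unadjusted p below 0.05 was reached by 3169 genes (50.6%).

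**Figure D1:**
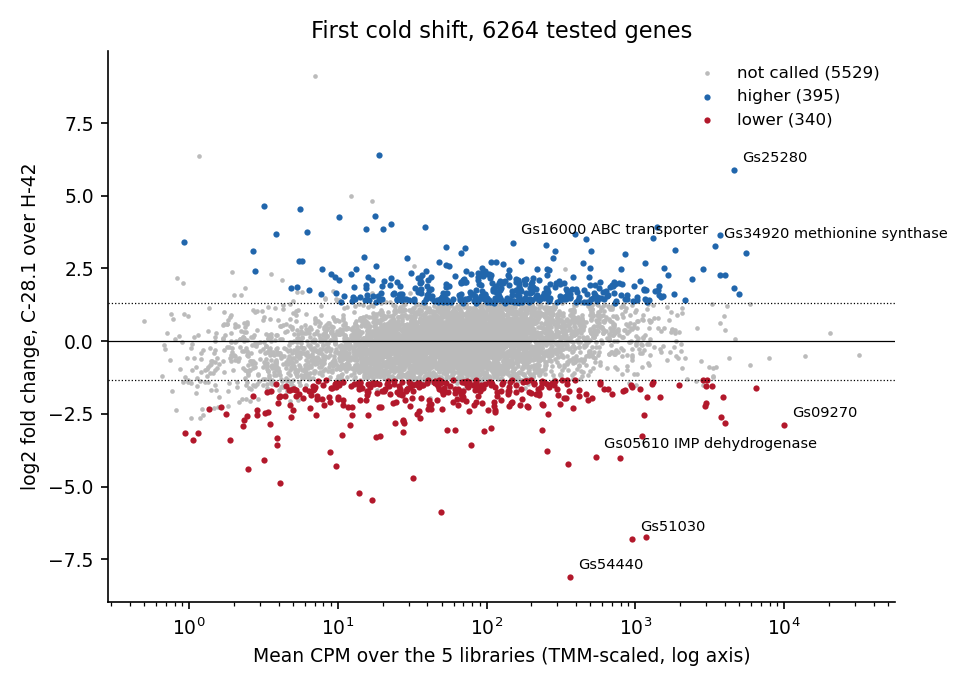
Log2 fold change of C-28.1 over H-42 (y axis) against the mean CPM over the 5 libraries (x axis, log scale) for the 6264 tested genes, one point a gene, with the 2.5-fold limits dotted. The 395 higher genes (blue) and 340 lower genes (red) are spread over the whole range of levels.

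Cultures B and C were sampled at both temperatures, which gives the change within each culture. Of the 395 higher genes, 347 rose more than 2.5-fold within culture B, 362 within culture C and 321 within both. Of the 340 lower genes, 301 fell by this much within culture B, 312 within culture C and 273 within both. The genes were called on these same libraries, so these counts are not independent of the calls. Shares over all tested genes were not counted. With culture as a block in the model 688 genes were called, 361 of them higher. The number of calls leaned on the pair of H-42 libraries. It was 360 (186 higher) without H-42 B and 198 (90 higher) without H-42 C, in fits where the remaining H-42 library is assumed to vary like the other samplings. Without C-28.1 A, B or C it was 612, 531 and 575, and without C-28.1 B the lower genes numbered 205 in place of 340. None of the 77 genes named by the rule changed sign in these fits. With 3 against 2 libraries an exact permutation test of a single gene cannot give a p below 0.1, so that single genes were judged by the model over all genes only.

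**Figure D2:**
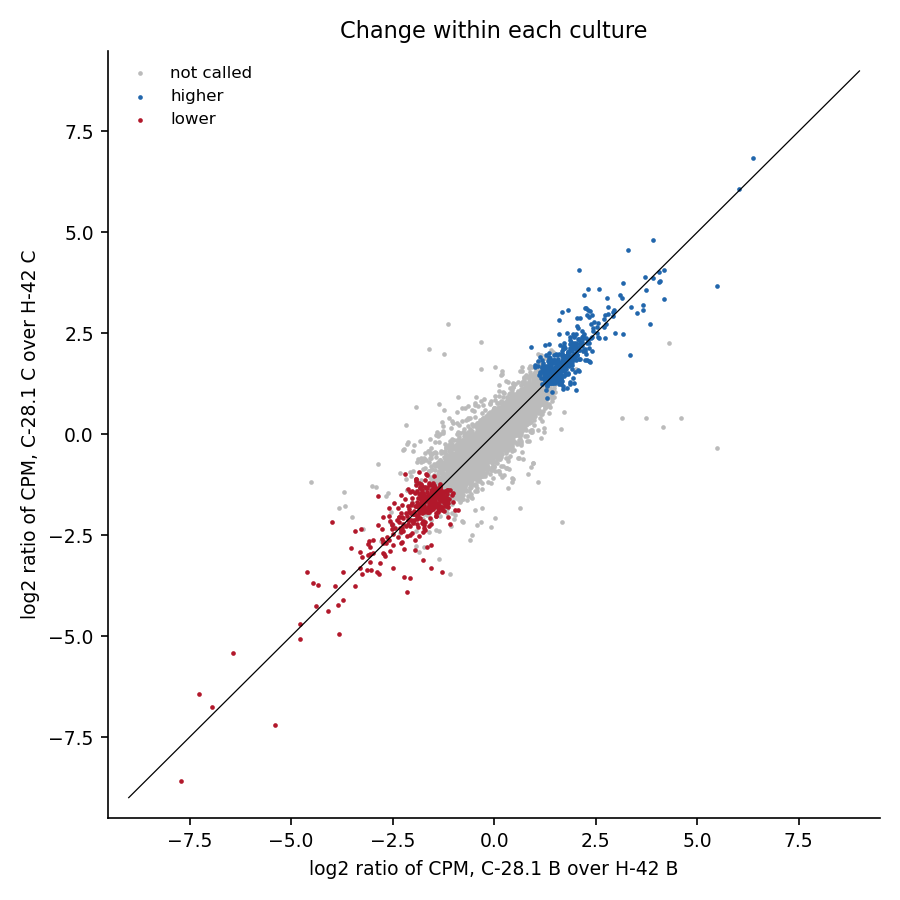
Log2 ratio of CPM, C-28.1 over H-42, within culture B (x axis) and within culture C (y axis), one point a gene, with the line of equal change. The 395 higher genes (blue) lie at the upper right and the 340 lower genes (red) at the lower left. The genes were called on these same libraries, so their place is not independent of the calls. Of the tested genes 3 with 0 counts in a library are not drawn.

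Fatty acid synthesis and desaturation supply the acyl chains of membrane lipids, and desaturases keep membranes fluid in the cold. Of the 7 tested genes of this list 3 were called higher and 1 lower (42.9 and 14.3%, beside 6.31 and 5.43% of all tested genes), with a median log2 fold change of 0.90 against -0.01 over all tested genes. The omega-6 (delta-12) fatty acid desaturase gene Gs25760, whose product adds a further double bond to an unsaturated chain, had 32.9 and 23.5 CPM at 42 °C and 163, 134 and 111 CPM at 28 °C. All cold libraries were more than 3-fold above both warm ones (log2 fold change 2.27, SE 0.35, edgeR adjusted p = 0.000749). The 3-oxoacyl-[acyl-carrier-protein] synthase II gene Gs14230, which encodes a chain-elongating enzyme of plastid fatty acid synthesis, had 164 and 143 CPM at 42 °C and 607, 745 and 778 CPM at 28 °C. Its libraries were apart as well, with culture A lowest of the cold ones (log2 fold change 2.21, SE 0.26, edgeR adjusted p = 0.000185). The bifunctional acetyl-CoA carboxylase/biotin carboxylase gene Gs09490, at the committed step of the pathway, rose from 267 and 248 to 663, 906 and 944 CPM (log2 fold change 1.70, SE 0.24, edgeR adjusted p = 0.000458). The gene of the enoyl-[acyl-carrier protein] reductase step (Gs47760) had a log2 fold change of 0.90 and was not called. The lower gene was that of a fatty acid hydroxylase (Gs21360), from 291 and 328 to 134, 106 and 132 CPM (log2 fold change -1.32, SE 0.22, edgeR adjusted p = 0.00101). It lay just past the fold limit and was not called without C-28.1 B (log2 fold change -1.22). Without H-46 A or C-28.2 A its log2 fold change was -1.31, again under the limit. Without H-42 C it was not called either (-1.23), nor were Gs25760 (2.04, adjusted p = 0.0189) and Gs09490 (1.65, adjusted p = 0.0132) in edgeR's test. Of these 7 genes 4 are on the study's own list of differentially expressed genes, drawn from the same libraries and therefore not independent evidence of direction. Of the 171 tested genes of that list 28.7% were higher and 22.8% lower. Among the 3 fatty acid genes that are not on it 1 was higher and 0 lower.

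Dihydrolipoamide dehydrogenase, a subunit of the complex that makes acetyl-CoA from pyruvate and of related complexes, belongs to the 12 largest rises with a product name. Its gene Gs15110 had 122 and 120 CPM at 42 °C and 557, 577 and 522 CPM at 28 °C (log2 fold change 2.19, SE 0.27, edgeR adjusted p = 0.000234). Of 9 genes of fatty acid oxidation and peroxisomes 0 were called higher and 1 lower, near the shares of all tested genes (6.31 and 5.43%), with a median log2 fold change of -0.09. A peroxisomal membrane MPV17/PMP22-like gene (Gs37800) had a log2 fold change of 1.15 and was not called. The called gene encodes an acyl-CoA oxidase (Gs21670), the entry enzyme of peroxisomal beta-oxidation. It fell from 127 and 121 to 49.1, 29.2 and 46.9 CPM (log2 fold change -1.58, SE 0.25, edgeR adjusted p = 0.000887). It was not called without H-42 B (log2 fold change -1.54) or without H-42 C (-1.61). For a spliced region of this gene the study lists a higher coverage in cold than in heat, each over both of its samplings. That is the opposite direction to these counts, and the reason was not tested. It was not particular to this gene. For regions of the dehydrase gene Gs42260 and the homeobox gene Gs41000, the study lists a lower and a higher coverage in cold. Log2 fold changes here were 0.58 and -1.06 at the first shift, and 1.97 and -1.15 from H-46 to C-28.2. Neither gene was called at the first shift. How many listed genes run either way was not counted.

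Amino acid and one-carbon metabolism held 6 higher genes and 1 lower gene among 19 tested (31.6 and 5.26%, beside 6.31 and 5.43% of all tested genes), with a median log2 fold change of 0.42. Without the genes of the study's list the counts were 2 and 1 of 14. The gene with the largest change was Gs34920, encoding 5-methyltetrahydropteroyltriglutamate--homocysteine methyltransferase, the methionine synthase that needs no cobalamin. It had 660 and 455 CPM at 42 °C and 5523, 5845 and 4764 CPM at 28 °C, or 557 ± 145 CPM (SD, n = 2) at 42 °C and 5378 ± 555 (SD, n = 3) at 28 °C. The rise of 9.65-fold was far outside the spread of either sampling (log2 fold change 3.27, SE 0.39, edgeR adjusted p = 0.000206), and the log2 ratio was 3.15 in culture B and 3.39 in culture C. S-adenosylmethionine synthetase (Gs03900), which turns methionine into the methyl donor of the cell, rose as well (log2 fold change 1.74, SE 0.28, edgeR adjusted p = 0.000839). D-3-phosphoglycerate dehydrogenase catalyses the entry into serine synthesis, and serine feeds one-carbon units to the folate cycle. Its gene Gs11390 rose from 83 and 72.4 to 311, 435 and 379 CPM (log2 fold change 2.27, SE 0.25, edgeR adjusted p = 0.000153), while a further gene of the same product name (Gs01690) had a log2 fold change of 0.75. The other higher genes were those of 3-isopropylmalate dehydrogenase of leucine synthesis (Gs34040, log2 fold change 1.88), of an alanine--glyoxylate/serine--pyruvate transaminase (Gs31580, 1.75) and of chorismate synthase (Gs21930, 1.58). In the shikimate pathway that leads to chorismate, the direction was not uniform, since the shikimate kinase gene Gs49560 fell from 42.2 and 53.6 to 21.5, 16.2 and 16.6 CPM (log2 fold change -1.41, SE 0.23, edgeR adjusted p = 0.000841). That call was lost without H-42 C (log2 fold change -1.23, adjusted p = 0.0203 in edgeR's test). Other genes named shikimate kinase (Gs02740 and Gs30830) had log2 fold changes of -0.94 and -0.94 and were not called. Of the 7 called genes of this list, 4 were called without H-42 B and 2 without H-42 C.

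Nitrogen assimilation was represented by 2 tested genes with a product name, and both were called higher, beside 6.31% of all tested genes. Glutamine synthetase (Gs37790), which binds ammonium to glutamate, had 1867 and 1746 CPM at 42 °C and 6880, 6010 and 6392 CPM at 28 °C. The cold libraries were more than 3-fold above the warm ones and did not overlap with them (log2 fold change 1.83, SE 0.27, edgeR adjusted p = 0.000581). NAD(P)-dependent glutamate dehydrogenase (Gs36460) rose from 103 and 103 to 301, 295 and 267 CPM (log2 fold change 1.48, SE 0.26, edgeR adjusted p = 0.00144). Both genes are on the study's list, of which 28.7% were higher, and no nitrogen gene from outside it was tested. Neither was called without H-42 B (adjusted p = 0.0107 and 0.0211 in edgeR's test) or without H-42 C (0.0153 and 0.0251), with log2 fold changes of 1.48 to 1.88.

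Of 15 genes of cytosolic ribosomal proteins, the protein part of the ribosomes that translate nuclear genes, 5 were called higher (33.3%, beside 6.31% of all tested genes) and 0 lower, and in 13 of them all cold libraries lay above both warm ones, against 37.3% of all tested genes. Their median log2 fold change was 0.88, and the range ran from -0.02 for 40S ribosomal protein S24e (Gs53580) to 2.05 for 40S ribosomal protein S16e (Gs52020). All 15 are on the study's list, so this count cannot be given for independently chosen ribosomal genes. Of the 171 tested genes of that list 28.7% were higher, and in 89 of them all cold libraries lay above both warm ones. Gs52020 had 411 and 334 CPM at 42 °C and 1440, 1605 and 1587 CPM at 28 °C (log2 fold change 2.05, SE 0.22, edgeR adjusted p = 0.000136), and 60S ribosomal protein L37e (Gs50890) had 285 and 221 CPM at 42 °C and 985, 1128 and 995 CPM at 28 °C (log2 fold change 2.03, SE 0.23, edgeR adjusted p = 0.000162). The genes of L15e (Gs57270, log2 fold change 1.99), S11e (Gs61400, 1.44) and L34e (Gs19110, 1.36) were also higher. Without H-42 C, 3 members were called. Among 6 genes of bacterial type ribosomal proteins, which serve plastids and mitochondria, 1 was called higher (16.7%, beside 6.31% of all tested genes). Of the 3 that are not on the study's list 0 were called, with a median log2 fold change of -0.49. The called gene, which is on that list, was the 30S ribosomal protein S1 gene (Gs56500), from 1171 and 1017 to 2905, 2870 and 2874 CPM (log2 fold change 1.40, SE 0.29, edgeR adjusted p = 0.0033). That call was lost whenever any 1 of the 5 libraries was left out, with adjusted p of 0.0126 to 0.0511 in edgeR's test and log2 fold changes of 1.30 to 1.50.

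Of 11 genes of translation initiation and elongation factors 3 were higher (27.3%, beside 6.31% of all tested genes) and 0 lower. All 3 come from the study's list, of which 28.7% were higher, and of the other 8 factor genes none was called. Elongation factor EF-1 alpha (Gs19840), which carries aminoacyl-tRNAs to the ribosome, had 1264 and 988 CPM at 42 °C and 5427, 5794 and 5174 CPM at 28 °C. Every cold library was at least 4-fold above the higher of the warm ones (log2 fold change 2.28, SE 0.37, edgeR adjusted p = 0.000862). Translation initiation factor eIF-5A (Gs17370), which relieves stalled ribosomes, rose from 668 and 636 to 1972, 2206 and 1726 CPM (log2 fold change 1.59, SE 0.23, edgeR adjusted p = 0.000538), and a subunit of eIF-3 (Gs52990) rose with a log2 fold change of 1.52. The EF-2 genes Gs54870 and Gs63370, for the factor of ribosome translocation, had log2 fold changes of 0.77 and 0.80 and were not called. Of 9 aminoacyl-tRNA synthetase genes, which charge tRNAs with amino acids (11.1% higher, beside 6.31% of all tested genes), only that of isoleucyl-tRNA synthetase (Gs38250) was called, from 55.8 and 47.4 to 156, 176 and 162 CPM (log2 fold change 1.68, SE 0.28, edgeR adjusted p = 0.00109). Methionyl-tRNA synthetase had genes on either side, Gs19350 with a log2 fold change of -1.26 and Gs19620 with 1.26, neither past the fold limit. Without H-42 C, the adjusted p of Gs19840, Gs17370 and Gs38250 were 0.0204, 0.0153 and 0.0247 in edgeR's test. Without H-42 B they were 0.0107, 0.0108 and 0.0131. In neither of these fits was any factor of initiation or elongation called.

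Chaperones and heat shock proteins assist folding and are classical heat response genes. None of the 7 tested genes was called in either direction, beside 11.7% of all tested genes, and the median log2 fold change of the list was -0.21. With 7 genes that share would leave few or no calls. The chaperonin GroES gene (Gs07100) had 2050 and 1916 CPM at 42 °C and 1471, 1894 and 1760 CPM at 28 °C, a difference of less than the fold limit with no overlap between the samplings (log2 fold change -0.21, edgeR adjusted p = 0.452). The most negative members were a prefoldin gene (Gs01860, -1.16) and a DnaJ-related gene (Gs31870, -0.94). Genes named as Hsp70 or Hsp90 are not among those with a product name here, so the list says nothing about them.

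Glycine-rich RNA-binding proteins are known in plants and cyanobacteria as cold-induced proteins that loosen RNA structure. The gene Gs13830 of this family had 404 and 408 CPM at 42 °C and 1508, 2716 and 2714 CPM at 28 °C, culture A being the lowest of the cold libraries but still more than 3-fold above both warm ones (log2 fold change 2.51, SE 0.36, edgeR adjusted p = 0.000504). An ATP-dependent RNA helicase (Gs34230), a class of enzymes that unwind RNA, rose from 65.4 and 54.8 to 144, 163 and 192 CPM (log2 fold change 1.47, SE 0.24, edgeR adjusted p = 0.00101). These were the higher ones among 14 genes of RNA helicases and RNA-binding proteins (14.3%, beside 6.31% of all tested genes), of which 0 were lower, with a median log2 fold change of 0.12. Both come from the study's list, and of the other 9 genes 0 were called. A second gene of the glycine-rich family (Gs37390) had a log2 fold change of 0.81 and was not called. Without H-42 C, Gs13830 had an adjusted p of 0.0119 and Gs34230 one of 0.025 in edgeR's test.

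Among 11 genes of splicing factors 1 was higher (9.09%, near the 6.31% of all tested genes) and 0 were lower, with a median log2 fold change of 0.52. It encodes the splicing factor, arginine/serine-rich 7 (Gs33180), a member of the SR family that guides the choice of splice sites. It had 265 and 248 CPM at 42 °C and 829, 1052 and 1085 CPM at 28 °C (log2 fold change 1.95, SE 0.22, edgeR adjusted p = 0.000157), and it was called in all fits with a library left out. A pre-mRNA branch site protein (Gs35570) had a log2 fold change of 1.17, under the fold limit (edgeR adjusted p = 0.000693). The genes of U6 snRNA-associated Sm-like proteins (Gs55930, Gs07120 and Gs52650) were at -0.39, -0.08 and 0.52 and not called. It is on the study's list, and of the 9 genes that are not, 0 were called. Gene counts do not measure the splicing of single introns.

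**Figure D3:**
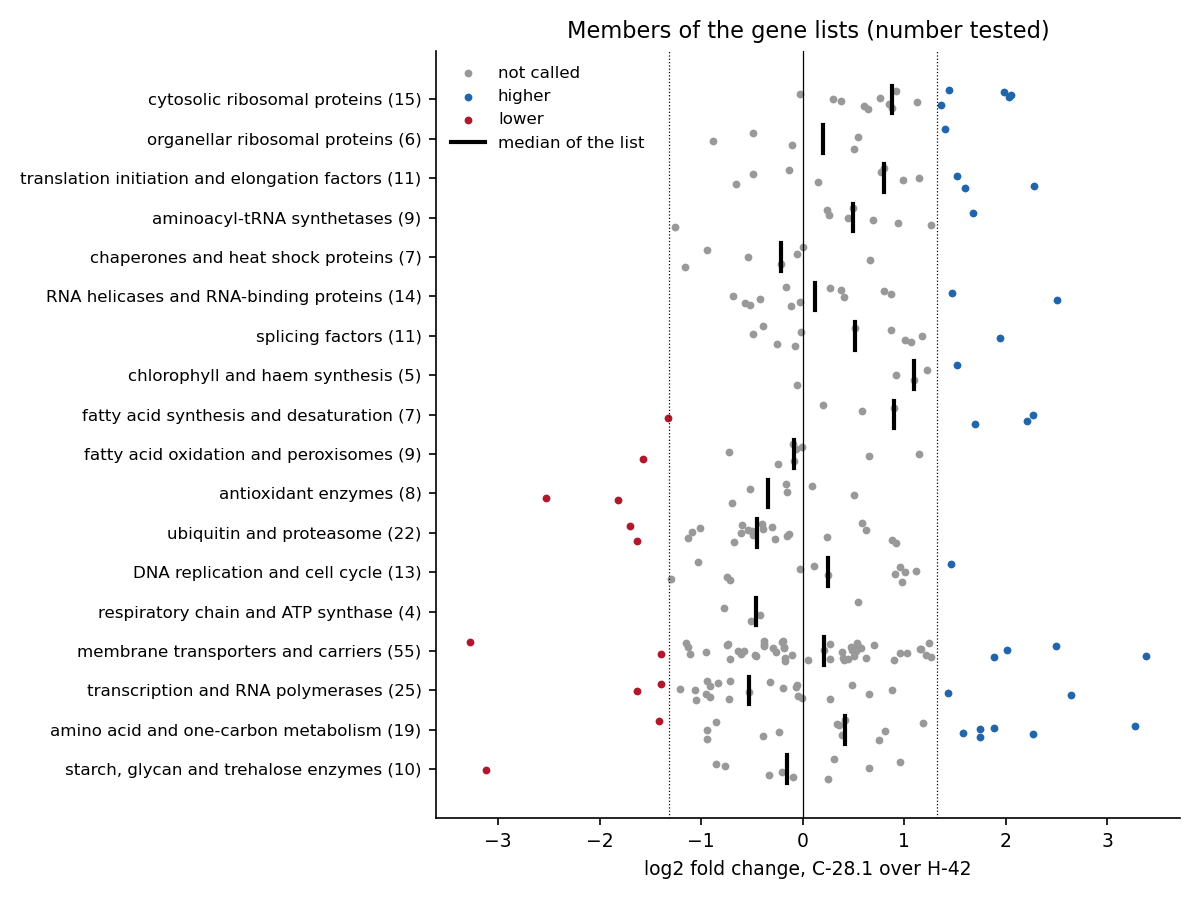
Log2 fold change of C-28.1 over H-42 (x axis) of every tested member of the 18 gene lists with 4 or more tested genes, one point a gene, the list median as a bar and the 2.5-fold limits dotted. Higher genes (blue) number 5 among the cytosolic ribosomal proteins and 6 in amino acid and one-carbon metabolism, and the called genes of the antioxidant and ubiquitin lists are lower ones (red), 2 in each.

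Primary sigma factors direct the bacterial type RNA polymerase, which in red algae transcribes the plastid genome. Gs17390, a gene of such a factor, had 25.9 and 36.1 CPM at 42 °C and 171, 204 and 207 CPM at 28 °C. The change of 6.26-fold left no overlap (log2 fold change 2.65, SE 0.23, edgeR adjusted p = 4.23e-05) and was called in all fits with a library left out. A further sigma factor gene, Gs35420, was the other higher one among 25 genes of transcription and RNA polymerases (log2 fold change 1.43, SE 0.24, edgeR adjusted p = 0.00105). Of this list 8% were higher and 8% lower, beside 6.31 and 5.43% of all tested genes. Its call was lost without C-28.1 C (log2 fold change 1.31), without H-42 B (1.44) and without H-42 C (1.42). The list as a whole had a median log2 fold change of -0.53, and in 14 of its genes all cold libraries lay below both warm ones, against 38.5% of all tested genes. Without the study's list the counts were 1 higher and 1 lower of 21. The lower genes of the list are named transcription factor without a family. Gs38150 fell from 386 and 367 to 146, 119 and 99.2 CPM (log2 fold change -1.64, SE 0.26, edgeR adjusted p = 0.000775), and Gs55410 fell from 1956 and 2244 to 867, 705 and 817 CPM (log2 fold change -1.40, SE 0.20, edgeR adjusted p = 0.000518). Without H-42 C neither passed, with adjusted p of 0.0106 and 0.0124 in edgeR's test, and Gs55410 was under the fold limit without C-28.1 B (log2 fold change -1.32). A bZIP factor (Gs42830) and the Myb-like Gs01340 had log2 fold changes of -1.21 and -1.05 and stayed under the fold limit. Without H-42 C, 1 gene of this list was called.

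Plastid pigment synthesis had 1 higher gene among 5 (20%, beside 6.31% of all tested genes), with a median log2 fold change of 1.09. Protochlorophyllide reductase (Gs50980), the enzyme ahead of chlorophyllide, rose from 110 and 91.4 to 245, 266 and 358 CPM (log2 fold change 1.52, SE 0.24, edgeR adjusted p = 0.000825). Magnesium chelatase subunit D (Gs14220) of the step that commits porphyrin to chlorophyll had 160 and 141 CPM at 42 °C and 319, 314 and 329 CPM at 28 °C, all cold libraries being above both warm ones, yet its log2 fold change of 1.09 was under the limit (edgeR adjusted p = 0.00229). Protoporphyrinogen oxidase (Gs22340) and coproporphyrinogen III oxidase (Gs14610) had log2 fold changes of 1.22 and 0.92 and were not called. The call of Gs50980 was lost without H-42 B (adjusted p = 0.0106) and without H-42 C (0.0219) in edgeR's test. Few photosystem and Calvin cycle genes have a product name, and of 3 in the photosystem and light-harvesting list only 1 was tested. The light-harvesting complex genes Gs15230 and Gs64440, both on the study's list, did not pass the count filter. The Calvin cycle enzyme sedoheptulose-1,7-bisphosphatase (Gs51920) had 874 and 646 CPM at 42 °C and 941, 767 and 838 CPM at 28 °C, and its samplings overlapped.

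Membrane transporters and carriers were the largest list, with 4 genes higher and 2 lower among 55, shares of 7.27 and 3.64% beside 6.31 and 5.43% of all tested genes, and 1 and 1 among the 46 that are not on the study's list. Gs16000, an ABC transporter ATP-binding protein, had 25.4 and 19.9 CPM at 42 °C and 211, 229 and 268 CPM at 28 °C, or 22.6 ± 3.88 CPM (SD, n = 2) at 42 °C and 236 ± 28.8 (SD, n = 3) at 28 °C. This 10.4-fold rise was the largest of all genes with a product name (log2 fold change 3.38, SE 0.28, edgeR adjusted p = 2.77e-05). Mitochondrial carriers move metabolites across the inner mitochondrial membrane. Gs42670 of this family rose from 62.5 and 72.5 to 345, 418 and 378 CPM (log2 fold change 2.49, SE 0.24, edgeR adjusted p = 7.03e-05), and the adenine nucleotide translocator Gs34210, which exchanges ADP for ATP, rose from 25.8 and 24.7 to 102, 105 and 99.1 CPM (log2 fold change 2.02, SE 0.27, edgeR adjusted p = 0.000361). The vacuolar proton-pumping pyrophosphatase Gs15740 had a log2 fold change of 1.88 and was called, whereas the related gene Gs15900 reached 1.27 and was not.

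A putative acetate transporter gene (Gs57950) showed the largest fall of this list, with 1924 and 2887 CPM at 42 °C and 281, 203 and 261 CPM at 28 °C. All cold libraries were far below both warm ones (log2 fold change -3.28, SE 0.36, edgeR adjusted p = 0.00014). A second gene of the same product name, Gs07700, had a log2 fold change of -0.72 and was not called. An MFS transporter (Gs29280), from a family that carries sugars and other small solutes, fell from 180 and 151 to 60.5, 63.2 and 65.4 CPM (log2 fold change -1.39, SE 0.17, edgeR adjusted p = 0.00027) but was under the fold limit without H-42 B (log2 fold change -1.26). Next to Gs57950 in the numbering lie Gs57940, with no product name, and Gs57960, the gene of a glycerol dehydrogenase, an enzyme that oxidises glycerol. Gs57960 fell from 6517 and 8589 to 1225, 1090 and 1390 CPM (log2 fold change -2.61, SE 0.24, edgeR adjusted p = 6.18e-05). All 3 neighbours were lower, and so was a further glycerol dehydrogenase gene close by, Gs57980, from 268 and 247 to 99.1, 78.8 and 95.7 CPM (log2 fold change -1.50, SE 0.21, edgeR adjusted p = 0.000489), which is named here after its values were seen.

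The largest fall of a gene with a product name was that of IMP dehydrogenase (Gs05610), which leads from inosinate to guanine nucleotides. It had 1007 and 1465 CPM at 42 °C and 87.2, 70.2 and 78.5 CPM at 28 °C, or 1236 ± 323 CPM (SD, n = 2) at 42 °C and 78.6 ± 8.53 (SD, n = 3) at 28 °C. The 15.7-fold difference left no overlap (log2 fold change -3.98, SE 0.41, edgeR adjusted p = 0.000112), and the log2 ratio was -3.84 in culture B and -4.22 in culture C. Other purine genes, picked after their values were seen, were partly higher. Phosphoribosylaminoimidazole carboxylase (Gs01220) of de novo purine synthesis rose from 588 and 550 to 1596, 1699 and 1417 CPM (log2 fold change 1.46, SE 0.26, edgeR adjusted p = 0.00134), and phosphoribosylglycinamide formyltransferase (Gs29980) of the same pathway had a log2 fold change of 1.33. Adenosine kinase (Gs08210), which returns adenosine to the nucleotide pool, rose from 282 and 252 to 1045, 1132 and 942 CPM (log2 fold change 1.96, SE 0.23, edgeR adjusted p = 0.000182), and adenylate kinase (Gs05370) had 1.48. Urate oxidase (Gs65630), of purine breakdown, fell from 53.4 and 66.6 to 17.4, 18.4 and 28.07 CPM (log2 fold change -1.49, SE 0.31, edgeR adjusted p = 0.00325).

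Polysaccharide and wall precursors changed in single genes. UDP-glucose 6-dehydrogenase (Gs58190), which makes the UDP-glucuronate of acidic polysaccharides, rose from 28.07 and 26.1 to 154, 126 and 155 CPM (log2 fold change 2.42, SE 0.33, edgeR adjusted p = 0.000444). A glycogenin glucosyltransferase-like gene (Gs06400), related to the primer of glycogen, had 47.9 and 68.5 CPM at 42 °C and 7.08, 6.73 and 6.22 CPM at 28 °C (log2 fold change -3.12, SE 0.34, edgeR adjusted p = 0.000143). It was the only called gene of the list of starch, glycan and trehalose enzymes (0 higher and 1 lower of 10, beside 6.31 and 5.43% of all tested genes, median log2 fold change -0.15). An alpha-1,4-N-acetylglucosaminyltransferase gene (Gs30610), named after an animal enzyme of heparan sulphate synthesis, fell from 480 and 547 to 98.4, 77 and 93.5 CPM (log2 fold change -2.52, SE 0.36, edgeR adjusted p = 0.0005). Gs58190 had an adjusted p of 0.0115 without H-42 C in edgeR's test, whereas the calls of Gs06400 and Gs30610 held in all fits with a library left out.

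Glutathione S-transferases attach glutathione to reactive compounds, and they made up the called genes among 8 antioxidant genes, 0 higher and 2 lower (25%, beside 5.43% of all tested genes). Gs28590 had 28.6 and 34.9 CPM at 42 °C and 6.85, 4.33 and 5.58 CPM at 28 °C (log2 fold change -2.53, SE 0.37, edgeR adjusted p = 0.000545), and Gs24120 had 80.5 and 97.9 CPM at 42 °C and 26.5, 21 and 28.6 CPM at 28 °C (log2 fold change -1.82, SE 0.28, edgeR adjusted p = 0.000678). Further genes of this name, Gs41140 and Gs28980, had log2 fold changes of -0.52 and 0.51, and thioredoxin f (Gs44280) had 0.09. No gene of this list is on the study's list. In ubiquitin and proteasome genes 0 of 22 were higher and 2 lower (9.09%, beside 5.43% of all tested genes), with a median log2 fold change of -0.45. In 15 of the 22 all cold libraries were below both warm ones, beside 38.5% of all tested genes. The lower genes were a ubiquitin-conjugating enzyme E2 (Gs53610), from 109 and 130 to 30.4, 35.9 and 43.7 CPM (log2 fold change -1.70, SE 0.28, edgeR adjusted p = 0.00106), and the E3 ligase synoviolin (Gs07260), known in yeast and mammals for the removal of misfolded proteins from the endoplasmic reticulum. Gs07260 fell from 150 and 144 to 43.6, 48.6 and 49.8 CPM (log2 fold change -1.63, SE 0.17, edgeR adjusted p = 0.000122). Proteasome subunits were not called, Gs32320 with a log2 fold change of -1.09 and Gs04270 with 0.92 being the extremes. The calls of Gs24120 and Gs53610 were lost without H-42 C (adjusted p = 0.0125 and 0.0174 in edgeR's test).

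In several lists the member with the highest CPM, not corrected for gene length, was not among the called genes. This held for lysyl-tRNA synthetase (Gs45050, 276 and 270 CPM at 42 °C and 303, 342 and 324 CPM at 28 °C) and for a peroxisomal membrane protein-related gene (Gs24100, 157 and 168 CPM at 42 °C and 280, 241 and 242 CPM at 28 °C). A ubiquitin-conjugating enzyme E2 gene (Gs41850) had 306 and 306 CPM at 42 °C and 230, 240 and 229 CPM at 28 °C and an alpha-galactosidase gene (Gs33800) had 135 and 117 CPM at 42 °C and 182, 147 and 138 CPM at 28 °C. These genes had log2 fold changes of 0.24, 0.65, -0.39 and 0.31. Of the 4 tested genes of the respiratory chain and ATP synthase 0 were called, beside 11.7% of all tested genes, and the median log2 fold change was -0.46. Among them NADH dehydrogenase (Gs57150) had the highest CPM and a log2 fold change of 0.54. Lists with a single tested gene held a thylakoid lumen protein (Gs19100, -0.15), a sugar:proton symporter (Gs33070, -0.58) and a subunit of RNA polymerase I (Gs37960, -0.18), none of them called.

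The remaining large changes of genes with a product name were spread over functions. A methyltransferase of unstated substrate (Gs13930) rose from 28.18 and 24.9 to 185, 149 and 192 CPM (log2 fold change 2.72, SE 0.32, edgeR adjusted p = 0.000206). Falls were seen in the genes of 4a-hydroxytetrahydrobiopterin dehydratase (Gs12740, log2 fold change -2.19, SE 0.30, edgeR adjusted p = 0.000392), a pterin recycling enzyme, of a polynucleotide phosphatase/kinase of DNA repair (Gs42810, log2 fold change -2.18, SE 0.33, edgeR adjusted p = 0.000621) and of a zinc finger protein (Gs13970, log2 fold change -2.13, SE 0.33, edgeR adjusted p = 0.000693). An adrenodoxin-like ferredoxin (Gs44570), an iron-sulphur electron carrier, fell from 204 and 253 to 50.02, 55.4 and 63 CPM (log2 fold change -2.02, SE 0.32, edgeR adjusted p = 0.000821). NAD-dependent formate dehydrogenase (Gs60980), which oxidises formate to CO2, fell from 586 and 616 to 180, 131 and 159 CPM (log2 fold change -1.94, SE 0.35, edgeR adjusted p = 0.00167). A ribosomal RNA small subunit methyltransferase (Gs05810) fell from 196 and 217 to 46.6, 47.5 and 49.6 CPM (log2 fold change -2.11, SE 0.40, edgeR adjusted p = 0.00216), but its call was lost without any 1 of the 5 libraries (adjusted p = 0.0108 to 0.0209 in edgeR's test). Without H-42 C the adjusted p was 0.0101 for Gs42810, 0.0119 for Gs13970, 0.013 for Gs44570 and 0.0179 for Gs60980. Gs60980 was also not called without H-42 B (0.0127) and without C-28.1 B (0.0113).

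Of 13 genes of DNA replication and cell division 1 was higher (7.69%, near the 6.31% of all tested genes) and 0 were lower. The minichromosome maintenance gene Gs58830, for a part of the replicative helicase, rose from 64.5 and 51.8 to 151, 145 and 184 CPM (log2 fold change 1.46, SE 0.22, edgeR adjusted p = 0.000698), a call lost without H-42 C (log2 fold change 1.31). The cell division protein FtsZ (Gs20120) had a log2 fold change of 1.01 and centrin-2 (Gs06410) one of -1.30. Genes of the cytoskeleton and of vesicle traffic were not on any list and are named after their values were seen. Actin (Gs17630) rose from 907 and 675 to 3736, 3313 and 3404 CPM (log2 fold change 2.14, SE 0.32, edgeR adjusted p = 0.000611). The small GTPases cell division control protein 42 (Gs25940) and ADP-ribosylation factor (Gs10100) had log2 fold changes of 1.79 and 1.80 and were both called higher.

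**Figure D4:**
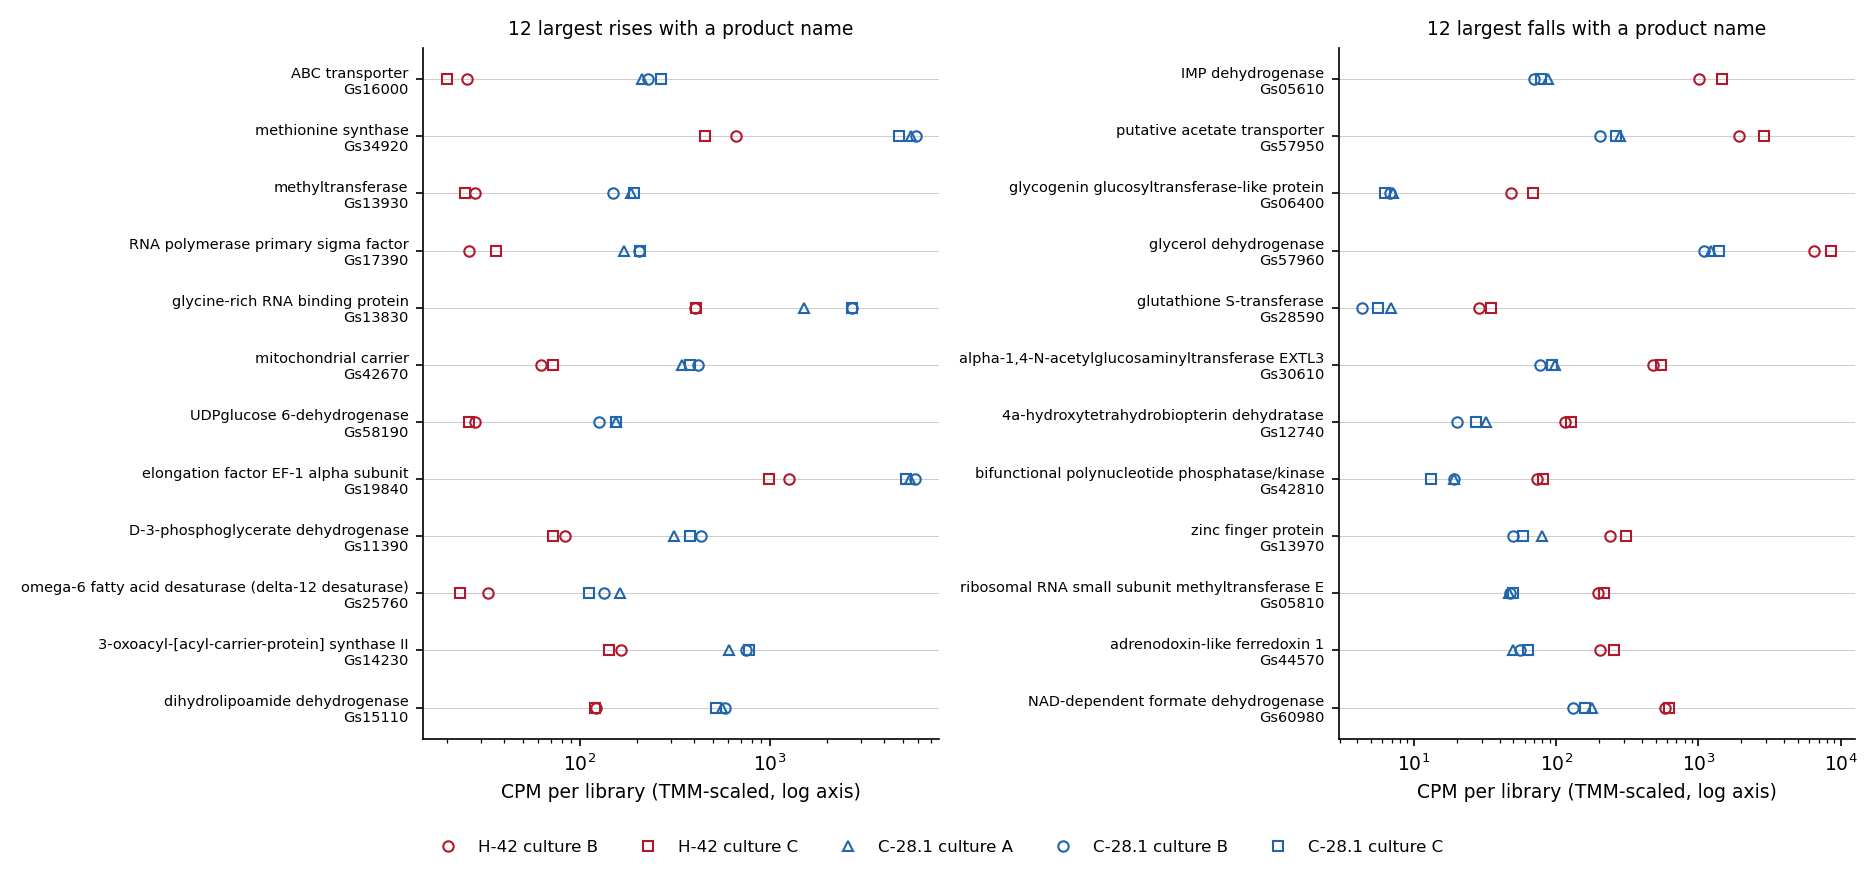
CPM of each of the 5 libraries (x axis, log scale) for the 12 largest rises (left) and the 12 largest falls (right) among genes with a product name, with H-42 in red and C-28.1 in blue and a marker shape for each culture. The rule that chose these 24 genes requires the libraries of both samplings to be apart, as they are in Gs16000 and Gs05610.

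Among called genes, the largest changes belonged to genes without a known product. Gs54440 had 528 and 1290 CPM at 42 °C and 4.11, 2.52 and 3.35 CPM at 28 °C. Both warm libraries stood above the cold ones by more than 100-fold, although they also differed from each other (log2 fold change -8.12, SE 0.53, edgeR adjusted p = 7.58e-06). Gs51030 fell from 2478 and 2228 to 21.2, 16 and 25.8 CPM (log2 fold change -6.81, SE 0.30, edgeR adjusted p = 7.29e-07) and Gs10210 from 2626 and 3238 to 31.1, 21.3 and 30.0 CPM (log2 fold change -6.74, SE 0.42, edgeR adjusted p = 7.58e-06). The neighbours Gs51040 and Gs10220 were lower too, with log2 fold changes of -3.30 and -5.22. The largest rise with at least 10 counts in each library was that of Gs25280, 125 and 135 CPM at 42 °C and 5520, 8135 and 9125 CPM at 28 °C (log2 fold change 5.87, SE 0.68, edgeR adjusted p = 0.000185). It was 58.5-fold higher in the cold. Gs47720 and Gs21010 followed, both with low levels at 42 °C. Gs47720 rose from 1.70 and 1.20 to 27.2, 25.6 and 33.7 CPM (log2 fold change 4.29, SE 1.02, edgeR adjusted p = 0.00667), and Gs21010 rose from 2.26 and 2.17 to 30.8, 41.3 and 36.5 CPM (log2 fold change 4.02, SE 0.41, edgeR adjusted p = 0.000111). The call of Gs47720 was lost without any 1 of the 5 libraries, with adjusted p of 0.0156 to 0.0646 in edgeR's test and log2 fold changes of 4.07 to 4.56. Gs34200, named after its values were seen, had 4 and 2 counts at 42 °C and 125, 315 and 173 at 28 °C, and it sits next to the adenine nucleotide translocator Gs34210.

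The most counted of the called genes lacked a product name as well. Gs07910 had 1140 and 960 CPM at 42 °C and 9088, 8751 and 7847 CPM at 28 °C (log2 fold change 3.03, SE 0.26, edgeR adjusted p = 3.63e-05) and Gs32860 had 2291 and 2104 CPM at 42 °C and 6670, 6770 and 6980 CPM at 28 °C (log2 fold change 1.63, SE 0.25, edgeR adjusted p = 0.000677). Of the falls, Gs09270 had 20651 and 20711 CPM at 42 °C and 2770, 2410 and 3166 CPM at 28 °C (log2 fold change -2.89, SE 0.37, edgeR adjusted p = 0.000293). Gs32120 fell from 12049 and 9560 to 3616, 3643 and 3376 CPM (log2 fold change -1.61, SE 0.28, edgeR adjusted p = 0.00125) and Gs23060 from 7764 and 8702 to 1428, 983 and 1137 CPM (log2 fold change -2.80, SE 0.43, edgeR adjusted p = 0.000693). Gs32860 and Gs32120 were not called without H-42 B (adjusted p = 0.0113 and 0.0175 in edgeR's test) or without H-42 C (0.0177 and 0.0104), and Gs32120 was not called without C-28.1 C (0.0112).

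Few called genes were near 0 in one sampling, with at most 3 counts in each of its libraries and at least 10 in each of the other. This held for 1 gene at 42 °C and for 4 genes at 28 °C. Gs61680 had 1 and 2 counts at 42 °C and 45, 16 and 21 at 28 °C, and its neighbour Gs61690 rose with a log2 fold change of 4.54. Of the 4 genes near 0 at 28 °C, Gs05090 had 28 and 42 counts at 42 °C and 2, 2 and 3 at 28 °C. Gs39150 had 18 and 25 counts at 42 °C and 0, 2 and 3 at 28 °C, and Gs55000 had 21 and 20 counts at 42 °C and 0, 2 and 2 at 28 °C. All of these named genes lost their call without H-42 C (adjusted p = 0.0163 to 0.0543 in edgeR's test). Gs61680 lost it without H-42 B too (0.0382), and Gs39150 and Gs55000 lost it without any 1 of the 5 libraries (0.0127 to 0.0543).

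The median gene length, from the RefSeq annotation, was 1631 bases in the higher genes, 1013 in the lower genes and 1416 in the genes not called, and the part of length in the calls was not tested. Neighbouring genes were called together in a few places. Neighbours here are genes that follow each other in the gene numbering, and distances on the genome were not used. Of 6040 tested pairs of neighbours 35 were both higher, 29 both lower and 28 of opposite call, while 1215 had 1 called gene. Of all tested genes 6.31% were higher and 5.43% lower, and whether such pairs exceed what these shares alone would give was not tested. The longest run was Gs29270 to Gs29300, 4 lower genes with the MFS transporter among them. Runs of 3 were Gs57940 to Gs57960 (lower, with the acetate transporter), Gs52000 to Gs52020 (higher, with ribosomal protein S16e), Gs32090 to Gs32110 (higher) and Gs44960 to Gs44980 (lower). The library kit does not mark the strand, so that reads of overlapping neighbours cannot be told apart.

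The step from 46 °C to C-28.2 is the comparison most like the first shift, and it shares no library with it, though cultures A and C are common to both. It called 637 genes (10.2%), 354 of them higher (5.65%) and 283 lower (4.52%). Scaled by library totals alone, 287 were higher and 364 lower, and the median log2 value over all tested genes went from -0.03 to -0.15. With culture as a block 709 genes were called. Of the genes higher at the first shift, 177 were called higher again, 44.8% of the first list and 50% of the second. Of the lower genes 131 were called again, 38.5% of the first list and 46.3% of the second. No gene was called in opposite directions. The median log2 fold change of the 395 higher genes was 1.70 at the first shift, which chose them, and 1.24 at the second, and that of the 340 lower genes was -1.73 and -1.25. The sign was shared by 387 of the 395 and by 329 of the 340. The share of genes with the same sign over all tested genes was not counted, so these counts have no background beside them.

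Of the 15 cytosolic ribosomal proteins 5 were higher at the first shift and 15 at the second, with median log2 fold changes of 0.88 and 2.23. For none of them did the difference between the shifts pass the threshold. Single members varied in how alike the shifts were. S24e (Gs53580) had log2 fold changes of -0.02 and then 2.46, and L15e (Gs57270) had 1.99 and then 1.955. S16e (Gs52020) had 260 and 226 CPM at 46 °C, then 1286 and 1263 CPM after the second cold shift (difference 0.34 on the log2 scale, SE 0.30, edgeR adjusted p = 0.489). Glutamine synthetase (Gs37790) had 1969 and 1243 CPM at 46 °C, then 3190 and 2652 CPM after the second cold shift, a log2 fold change of 0.86 at the second shift, and a difference of -0.97 on the log2 scale, SE 0.38, edgeR adjusted p = 0.151. The transcription factor Gs38150 had 199 and 334 CPM at 46 °C, then 229 and 304 CPM after the second cold shift, with overlap between those samplings, and the difference between the shifts did not pass the threshold (1.64 on the log2 scale, SE 0.38, edgeR adjusted p = 0.0801). Fatty acid desaturase Gs25760 had 42.6 and 16.8 CPM at 46 °C, then 238 and 196 CPM after the second cold shift (log2 fold change 2.87). IMP dehydrogenase (Gs05610) had 590 and 1709 CPM at 46 °C, then 34.1 and 59.2 CPM after the second cold shift (log2 fold change -4.62).

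Tested over all genes, 0 differed between the shifts past the threshold by edgeR's quasi-likelihood test, while 1551 (24.8%) had an unadjusted p below 0.05. DESeq2 called 131, the model with culture as a block 3, and the fit without H-46 C 632, so that this count changed with that library and with the tool. The smallest p values belonged to Gs49910, to its neighbour Gs49900, a primary-amine oxidase gene, and to Gs39590. Gs49910 had 81.9 and 86.7 CPM at 42 °C and 53.7, 49.3 and 44.7 CPM at 28 °C, and 242 and 185 CPM at 46 °C, then 27 and 23.6 CPM after the second cold shift, with a difference of -2.30 on the log2 scale, SE 0.28, edgeR adjusted p = 0.032. Gs49900, whose product splits amines, had 50.5 and 53.5 CPM at 42 °C and 51.6, 31.1 and 50.9 CPM at 28 °C, and 358 and 190 CPM at 46 °C, then 27 and 16.3 CPM after the second cold shift (difference -3.43 on the log2 scale, SE 0.49, edgeR adjusted p = 0.0577). Its libraries of the first shift overlapped, and the highest values were those at 46 °C. Gs39590 had 151 and 183 CPM at 42 °C and 87.7, 104 and 116 CPM at 28 °C, and 46.6 and 78.6 CPM at 46 °C, then 175 and 214 CPM after the second cold shift (difference 2.34 on the log2 scale, SE 0.36, edgeR adjusted p = 0.0577).

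**Figure D5:**
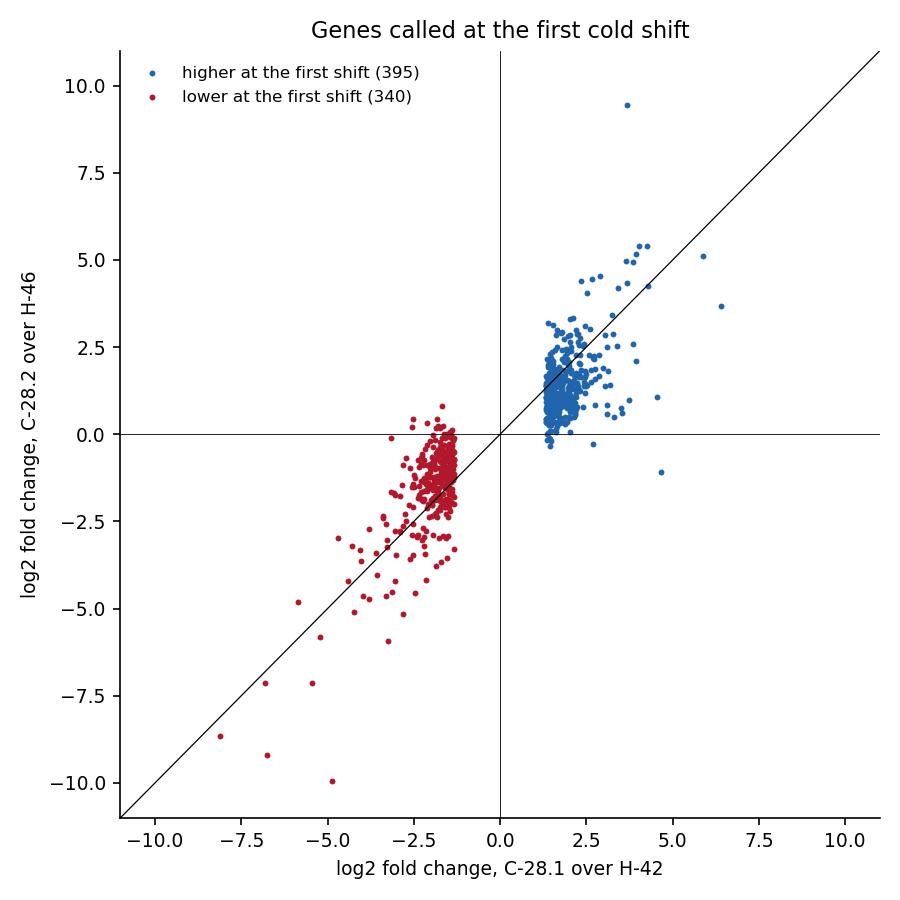
Log2 fold change at the first shift, C-28.1 over H-42 (x axis), and at the second, C-28.2 over H-46 (y axis), for the 735 genes called at the first shift, with the line of equal change. Of the 395 higher genes (blue) 387 lie above 0 at the second shift, and of the 340 lower genes (red) 329 lie below 0. The same share over all tested genes was not counted.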

How the data were processed

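Counts of paired-end reads per gene were deposited by the authors for 9 libraries, 1 table a library, with no normalization. The libraries were made with the TruSeq RNA v2 kit. For the splicing analysis of the study, trimming and mapping with STAR are described; the counter, annotation version and strand setting of the gene counts are not given in the sources used here. The tables hold 6538 genes, of which 6264 passed filterByExpr and 274 did not. Library totals of the first shift ran from 4539163 to 8989387. All 9 libraries were fitted in one model of 4 samplings with edgeR 4.0.16 (TMM, glmQLFit and glmQLFTest) in R 4.3.3 with limma 3.58.1, and p-values were adjusted after Benjamini and Hochberg over all tested genes. The fold limit of 2.5 is the one the study states for genes, and an adjusted p below 0.01 the one it states for splicing. P-values set a change against the spread between replicate cultures, estimated jointly over the 4 samplings. The main model has no term for culture, although the same cultures were sampled repeatedly. The replicates of H-46 and of C-28.2, which enter that estimate, differed by a root mean square of 0.662 and 0.581 on the log2 scale.

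Culture letters pair the libraries because the study moved the same cultures through the samplings. As a check, the differences between cultures B and C in H-42 and in C-28.1 correlated with r = 0.09 across 5930 genes, which are not independent replicates. For cultures A and C, r was 0.14 between C-28.1 and H-46, 0.14 between C-28.1 and C-28.2, and 0.58 between H-46 and C-28.2. On simulated counts the fit recovered 93.5% of 200 genes changed 4-fold among 6251 tested, with 0 false calls. These counts were drawn independently, with the spread that the fit itself had estimated and no change in any other gene. They therefore check the procedure and do not give the rate of false calls in the real libraries.

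Among called genes with at least 10 counts in each of the 5 libraries and no overlap between samplings, the text names the 12 largest rises and falls with a product name, the 3 largest of any name in each direction and the 3 with the highest CPM in each direction. In each of the 23 lists it names the 2 largest rises, the 2 largest falls and the member with the highest CPM. It further names up to 3 genes near 0 per direction and the 3 genes with the smallest p for the difference between shifts. The members and lists were chosen with earlier results of these data known. Product names came from the study's tables of spliced introns and of differentially expressed genes, the latter drawn from these libraries; the authors' own fold changes and p-values in them were not used. Alternatives were DESeq2 1.42.0, other scalings and filters, different thresholds, a culture block and the omission of each library in turn; thinned counts and lists without the differential expression table were added after seeing the data.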

Additional observations from a re-analysis of the deposited data

How the results depend on the processing

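The 735 calls of the first shift numbered 681 to 854 under DESeq2 (801), other scalings (736 and 743), other filters, thinned counts (716), an adjusted p below 0.05 (837), the culture block, and fits of the 5 libraries alone (830) or of cultures B and C alone (854). With glmTreat against 2.5-fold, which tests whether a change exceeds the limit, 63 genes were called (35 higher and 28 lower), and without a fold minimum 1531 (822 higher and 709 lower). The second shift gave 94 and 1109 in these settings. Library totals in place of TMM turned the balance of higher and lower calls in both shifts, to 353 against 390 in the first and 287 against 364 in the second. Leaving out 1 library gave 198 to 789 calls, 90 to 414 higher and 108 to 381 lower, the lowest without H-42 C, where the lone H-42 library is assumed to vary like the rest. Among 1380 refits of the 77 genes named by the rule, 1301 kept direction and call or absence of a call, 79 lost the call and 0 reversed. Only 61 of the 77 were called and had a call to lose. The glmTreat fit and the changed thresholds are not among these refits. With culture as a replicate block, from the pairing by culture letter, 688 genes were called at the first shift, all 77 named genes kept their call or absence of one, and the difference between the shifts went from 0 to 3 genes. That difference gave 131 genes with DESeq2, 1 at an adjusted p below 0.05, and 0 to 632 when a library was left out, 632 without H-46 C. The causes of these shifts in number were not tested.

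With 2 and 3 libraries a sampling, many calls hung on single libraries, at high as at low counts. Without H-42 C, 33 of the 61 calls of named genes were lost, 28 of them by the adjusted p alone.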
